A study of Mus musculus with 20 samples.

Results

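The core circadian clock genes of the mouse were followed through the cycle of the seminiferous epithelium in transcripts of Leydig cell polysomes and of whole testis. The members were Arntl, Clock, Per1, Per2, Per3, Cry1, Cry2, Nr1d1, Nr1d2 and Ciart. Each was represented by the probe set that carried its symbol alone and, where a gene had several, by the one of highest mean signal on the 20 arrays. All 10 were listed on every array and passed the filter on dim genes, among 15651 genes tested. Only Ciart had more than 1 such probe set.

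The circadian clock is a feedback loop of transcription. Arntl (also known as Bmal1) and Clock form a heterodimer that binds E-box sequences and activates the period genes Per1, Per2 and Per3, the cryptochromes Cry1 and Cry2, the nuclear receptors Nr1d1 and Nr1d2 (the REV-ERB proteins) and Ciart (also known as Chrono). Period and cryptochrome proteins return to the nucleus and inhibit the heterodimer, Ciart is a further inhibitor of it, and the REV-ERB proteins repress Arntl through ROR elements. Leydig cells lie between the seminiferous tubules and make testosterone. The clock runs in most tissues, and in testis Per1 and Clock transcripts have also been found in germ cells of given stages.

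The study asked how Leydig cell transcripts relate to the stage of the tubules beside them. All 20 samples came from male mice of strain 129/C57BL6 that were positive for RiboTag, a ribosomal protein that gains an HA tag where Cre recombinase acts, and for a Cyp17 iCre, so that Cre is driven by the promoter of a steroidogenic enzyme gene. All mice received 100 µg per g of WIN 18,446, an inhibitor of retinoic acid synthesis, daily for 7 days from day 2 after birth. They then received 200 µg of all-trans retinoic acid on day 9 and were killed 42 to 50 days after that injection. Their testes were assigned to 1 of 5 stage windows, with 2 testes each. In the order of the cycle these were stages XII-II/III and then II/III-VI, followed by VI-VIII, by VIII-X and by X-XII. From each homogenate, RNA was taken as total testis RNA and after immunoprecipitation (IP) of HA-tagged polysomes, which gave 10 groups of 2 arrays and no group without synchronization. The labels do not say that replicates came from separate mice, so p-values measure the spread between these samples. The time of day of collection is not given in the sources used here. For 1 array, total testis XII-II/III replicate 1, the labels conflict. Its source field names stages X-II/III, but XII-II/III stands in its title and in its stage entry and was used.

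The arrays fell into 4 sets of 5, one for each fraction and replicate number, that looked to have been normalized separately, with medians between 9.42 and 9.99 log2 units. For IP against total testis the fit counts the 10 arrays of each fraction as independent, so its SE and p are likely too small. All 6 tested of 8 Leydig cell markers were higher in IP, with a median log2 difference of 2.81. Their summed intensity was 76649 to 93766 in IP and 15232 to 21689 in total testis. Insl3 and Lhcgr could not be tested. Spermatid markers were read in IP as well, where the 8 summed to between 35319 and 67684, against 70599.6 to 86342 in total testis. Markers of some other cell types were higher in IP too. Of 7 tested Sertoli cell markers 5 were higher and 0 lower (median difference 0.31, summed intensity 18616 to 29812 in IP and 13544 to 14891 in total testis). Of 6 tested spermatogonial markers 2 were higher and 2 lower (10112 to 16913 against 4757 to 5786), and of 5 tested endothelial markers 2 were higher and 1 lower (2645 to 4121 against 1905 to 2319). Most markers of peritubular myoid cells (5 of 6), macrophages (6 of 7) and spermatocytes (7 of 7) were lower. In bulk samples, fewer cells of a type and less RNA per cell cannot be told apart.

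The promoters of the members differ in the clock elements they carry, and the sequences below, from 6 members with an exact element, are shown because the loop runs through such elements. The RefSeq promoter table of build GRCm38.p6 holds 13 windows for 9 of the 10 members, each with 250 bases before a start site and 50 after it. Both strands were searched for the E-box CACGTG, the related E'-box CACGTT (read as AACGTG on the other strand), the D-box TTATGTAA, the cyclic AMP element TGACGTCA and the ROR element, by its name. No motif overlapped another in the sequences shown, and capitals mark the matches. Ciart holds 3 E-boxes, 116, 58 and 44 bases before an internal start (chr3:95882258-95882478, minus strand). Per1 holds 1 E-box 166 bases before an internal start, within the gene record (chr11:69098699-69098948, plus strand). Cry1 has an E-box and an E'-box 60 and 79 bases before its start (chr10:85185055-85185304, minus strand), and Nr1d1 an E'-box 28 bases before its start (chr11:98775378-98775627, minus strand). Per3 has a pair of D-boxes, 205 and 158 bases before an internal start (chr4:151044708-151044915, minus strand). The bases shown for Ciart and Per3 end at the edge of the gene record, short of the start from which the distances were counted. Arntl has a ROR element 28 bases after an internal start (chr7:113207528-113207557, plus strand).
Ciart: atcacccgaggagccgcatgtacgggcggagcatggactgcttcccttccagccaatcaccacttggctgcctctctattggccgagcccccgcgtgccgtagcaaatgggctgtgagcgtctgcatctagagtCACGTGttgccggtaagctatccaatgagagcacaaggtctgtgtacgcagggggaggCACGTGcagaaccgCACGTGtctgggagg
Per1: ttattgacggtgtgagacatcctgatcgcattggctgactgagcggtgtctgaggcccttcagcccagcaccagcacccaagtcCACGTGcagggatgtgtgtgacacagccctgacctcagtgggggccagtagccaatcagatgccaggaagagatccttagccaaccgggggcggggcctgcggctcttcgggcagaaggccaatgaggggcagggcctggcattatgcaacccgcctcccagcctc
Cry1: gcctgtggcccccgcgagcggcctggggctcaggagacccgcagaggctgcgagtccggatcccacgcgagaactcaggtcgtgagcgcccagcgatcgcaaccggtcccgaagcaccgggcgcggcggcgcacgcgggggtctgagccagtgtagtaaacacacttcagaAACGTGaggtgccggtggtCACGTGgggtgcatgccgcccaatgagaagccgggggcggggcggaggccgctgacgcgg
Nr1d1: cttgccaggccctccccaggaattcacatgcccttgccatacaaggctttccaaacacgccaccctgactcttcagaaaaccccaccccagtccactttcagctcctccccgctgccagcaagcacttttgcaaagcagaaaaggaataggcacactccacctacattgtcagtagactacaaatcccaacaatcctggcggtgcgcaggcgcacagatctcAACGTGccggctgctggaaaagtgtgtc
Per3: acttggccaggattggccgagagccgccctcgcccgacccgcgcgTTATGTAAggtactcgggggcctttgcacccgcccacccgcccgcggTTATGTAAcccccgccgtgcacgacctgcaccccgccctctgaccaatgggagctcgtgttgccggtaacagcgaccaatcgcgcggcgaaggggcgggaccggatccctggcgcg
Arntl: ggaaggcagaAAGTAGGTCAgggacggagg
The E-box stood in windows of 3 members and in 7.15% of all 32851 windows. The E'-box also stood in windows of 3 members (Cry1, Cry2 and Nr1d1) and in 4.68% of all windows. The D-box stood in 0.938% of windows, the ROR element in 0.219% and the cyclic AMP element, found in 0 of the members' windows, in 1.79%. A match is a description of the letters, not a bound site.

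Most clock genes measured higher in IP than in the testis as a whole. Of the 10 members, 7 were called higher in IP and 0 lower at a limma adjusted p below 0.05, beside 50.1% of all tested genes higher and 26.6% lower. The called genes were both activators, Per2, Per3, Cry2 and both REV-ERB receptors. Per1, Cry1 and Ciart were not called. The median difference of the members was 0.72 log2 units and that of all tested genes 0.20. Sertoli cell markers were higher in the same IP arrays (5 of 7), and their part in these differences was not tested. In 6 members (the 7 without Cry2) all 10 IP arrays lay above all 10 total arrays, which held for 32.8% of all genes.

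Among the members, the largest difference belonged to Nr1d1 (probe set 10390691, chr11:98767932-98775377). Its intensity had a lowest, median and highest value of 3709, 5179 and 8820.3 in IP and of 1187, 1637 and 2862 in total testis. IP was higher by 1.57 ± 0.099 log2 units (SE, n = 10 arrays per fraction, limma adjusted p = 2.14e-10), or 2.96-fold. All 10 IP arrays exceeded every total array. Nr1d2 (10417734, chr14:18204056-18239106), the related receptor, ran from 1975 to 2451 in IP and from 862 to 1013 in total testis, with medians of 2212 and 942. Its difference of 1.24 ± 0.065 (limma adjusted p = 1.76e-11) was the most even across testes. Within single testes it lay between 1.06 and 1.40, whereas that of Nr1d1 lay between 0.82 and 2.64.

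Both activators measured higher in IP on the deposited scale. Arntl (10556463, chr7:113178471-113314126) had a lowest, median and highest intensity of 451, 836 and 1389 in IP and of 387, 430.1 and 448 in total testis. Its IP level was higher by 0.94 ± 0.12 log2 units (limma adjusted p = 1.05e-06), or 1.92-fold, and its lowest IP array still lay above its highest total array. Clock (10530733, chr5:76209868-76305603) measured 2364, 2967 and 3110.1 in IP and 1646, 1812 and 1991 in total testis. It was higher by 0.65 ± 0.061 (limma adjusted p = 4.02e-08), again with no overlap. The Arntl difference varied more between testes, from 0.22 to 1.63, than that of Clock, from 0.41 to 0.79.

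Among the inhibitory arm, the genes split. Per2 (10356601, chr1:91415977-91459351) was at 708, 1088 and 1666 in IP and at 481, 584 and 683 in total testis, a difference of 0.92 ± 0.076 log2 units (limma adjusted p = 6.75e-09). Per3 (10518781, chr4:150997018-151044707), whose loss leaves the rhythm of mice largely intact, was at 727, 881 and 1085 in IP and at 440.4, 526 and 587 in total testis, a difference of 0.78 ± 0.089 (3.96e-07). Neither overlapped between fractions. Cry2 (10485170, chr2:92403646-92434085) was at 1212, 1743 and 2324 in IP and 1086, 1333 and 1403 in total testis, a difference of 0.45 ± 0.071 (limma adjusted p = 2.16e-05). Its arrays overlapped, although IP was higher in all 10 testes.

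Per1, Cry1 and Ciart measured about the same in both fractions. Per1 (10377439, chr11:69095108-69109965), a period gene induced by cyclic AMP and glucocorticoid signals, was at 2018, 2697 and 4154 in IP and 2196, 3057 and 5001 in total testis, a difference of -0.07 ± 0.065 (limma adjusted p = 0.326). Cry1 (10371400, chr10:85131700-85185054), a strong repressor of the loop, was at 859, 973 and 1399 in IP and 864, 1060.4 and 1157 in total testis, a difference of -0.07 ± 0.073 (0.389). Ciart (10373452) was at 1044, 1495 and 2188 in IP and 1193, 1618 and 2627 in total testis, a difference of -0.17 ± 0.097 (limma adjusted p = 0.121). The fractions overlapped throughout, and IP was higher in 3, 2 and 3 of the 10 testes for Per1, Cry1 and Ciart. The second Ciart probe set (10500272) was lower in IP by -0.45 ± 0.096 (limma adjusted p = 0.000465). The kept Ciart probe set has a number whose 20 neighbours lie mostly on chromosome 10 (19 of 20), while the gene lies at chr3:95878500-95882257 and the 20 neighbours of the second lie on chromosome 3. Both are given for that reason.

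**Figure D1:**
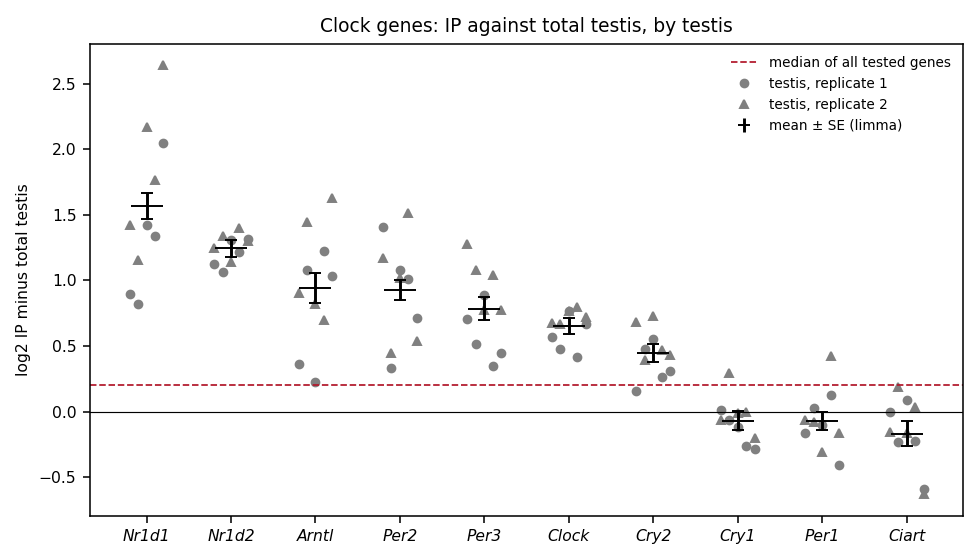
Difference between IP and total testis (log2 units, vertical axis) of each member, for the 10 testes (grey circles for replicate 1, triangles for replicate 2), with the mean and its SE from limma in black and the median of all tested genes (0.20) as a dashed line. The 7 called genes lie above 0 in all 10 testes, while Cry1, Per1 and Ciart scatter around or below it.

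The direction of these differences depends on how the fractions are scaled to each other. Centring each array on its median moved the median of all genes from 0.20 to -0.31, and quantile normalization moved it to -0.11. Under these scalings 6 members were called higher and 3 lower, where 28% of all genes were higher and 61.4% lower after centring. Cry2 was then at -0.07 (limma adjusted p = 0.173) after centring and 0.01 (0.778) after quantile normalization. Per1, Cry1 and Ciart were called lower, at -0.59, -0.58 and -0.68 after centring and -0.26, -0.57 and -0.58 after quantile normalization. Arntl, Clock, Per2, Per3, Nr1d1 and Nr1d2 were higher under each scaling, but by less. In this order they stood at 0.43, 0.14, 0.41, 0.27, 1.05 and 0.73 log2 units after centring. After quantile normalization they stood at 0.53, 0.36, 0.44, 0.31, 1.41 and 0.82. With the array set as a random block the same 7 were called. With a term for each testis, Ciart was called lower as well (limma adjusted p = 0.0373). Shares of all genes were not computed for quantile normalization, the random block or the testis term.

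**Figure D2:**
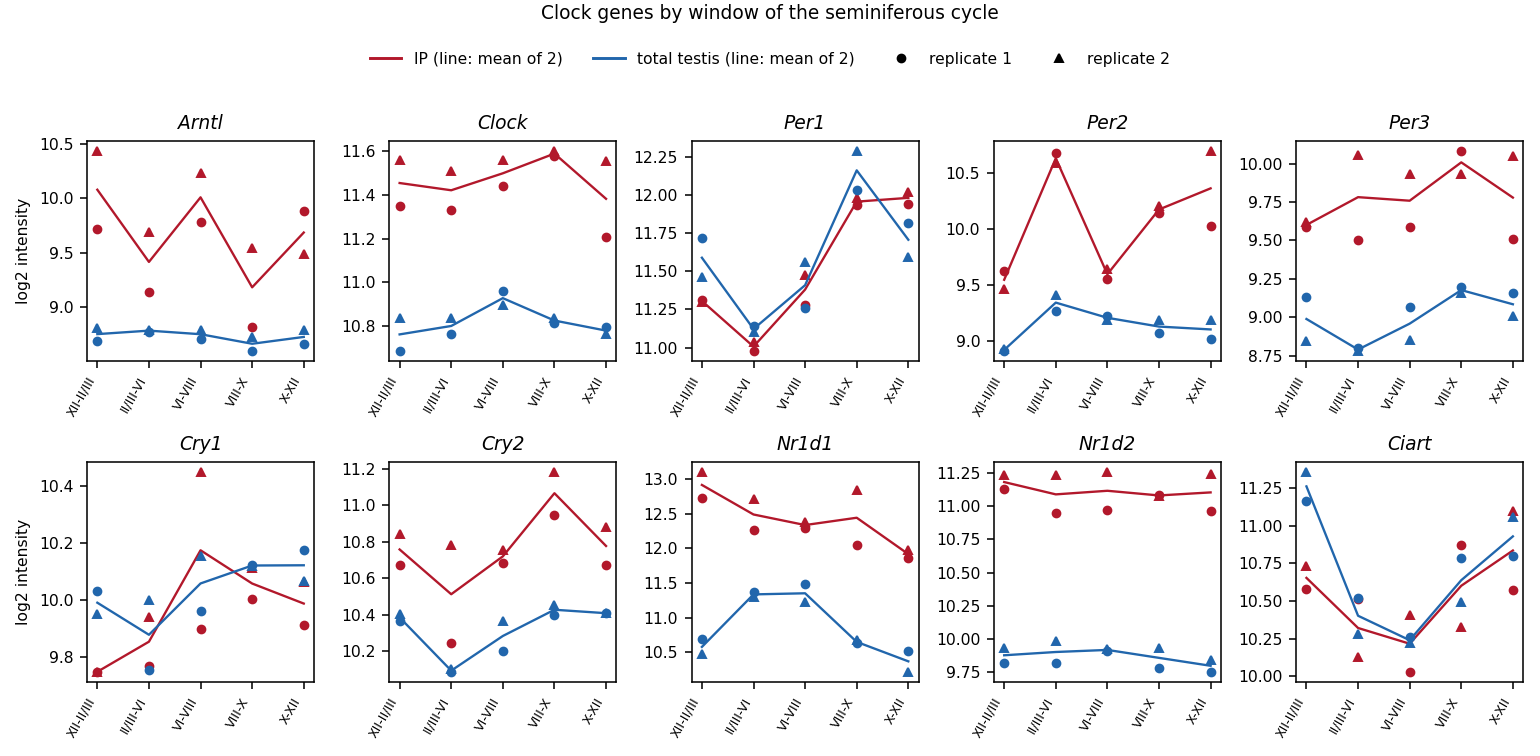
Log2 intensity (vertical axis, with its own range in each panel) of the 10 members in the 5 windows (horizontal axis), in IP (red) and total testis (blue). Circles and triangles are replicates 1 and 2, and lines join the means of 2. Per1 is lowest at II/III-VI in both fractions and highest at X-XII in IP and VIII-X in total testis. The window means of Per2 span 1.09 log2 units in IP and 0.42 in total testis, and no member's course was called different between fractions.

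In IP, 2 of the 10 members changed between windows, both of them period genes and in different windows. Per1 was highest at stages VIII to XII and Per2 at stages II/III-VI. Per1 was not higher in IP than in total testis (-0.07 log2 units, limma adjusted p = 0.326). The cell type behind its IP course was not tested. The share of 2 in 10 stands beside 8.87% of all tested genes with a called window effect in IP (limma F test, Benjamini-Hochberg adjusted p below 0.05). At an unadjusted p below 0.05 the count was 5. With a term for each array set, which leaves 8 residual degrees of freedom, 5 members were called and 19.2% of all genes. The additional members were Arntl (limma adjusted p = 0.0334), Cry2 (0.0154) and Nr1d1 (0.00788).

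Per1 in IP measured 2543 and 2518 at XII-II/III, 2018 and 2097 at II/III-VI, 2489.7 and 2851 at VI-VIII, 3902 and 4039 at VIII-X, and 3927 and 4154 at X-XII. The 4 arrays of the last windows lay above the other 6, and the replicates agreed closely. The highest and lowest window means were 1.96-fold apart (limma F test, adjusted p = 0.000538). Against the mean of the other windows, X-XII was higher by 0.57 ± 0.12 log2 units (limma adjusted p = 0.0138, beside 0.46% of all genes higher there) and VIII-X by 0.54 ± 0.12 (0.0176, beside 2.42%). The trough at II/III-VI was at -0.65 ± 0.12 (limma adjusted p = 0.00206, beside 3% of all genes lower). With array weights the F test gave an adjusted p of 0.110, and the call was lost.

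Per2 in IP measured 790.4 and 708 at XII-II/III, 1641 and 1539 at II/III-VI, 752 and 798 at VI-VIII, 1131 and 1183 at VIII-X, and 1045 and 1666 at X-XII. Both II/III-VI arrays were high, but replicate 2 of X-XII was as high, so these windows overlapped. The X-XII replicates differed by 0.56 log2 units after centring on their sets. The window means spanned 2.12-fold (limma F test, adjusted p = 0.00077). II/III-VI was higher than the other windows by 0.71 ± 0.13 log2 units (limma adjusted p = 0.00313, beside 3.2% of all genes higher). The windows on both sides of it were low, XII-II/III at -0.65 ± 0.13 (limma adjusted p = 0.0193, beside 1.51% of all genes lower) and VI-VIII at -0.58 ± 0.13 (0.0143, beside 1.87%).

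Germ cell markers moved between the same IP arrays. Of 8 spermatid markers 6 had a called window effect in IP, and their summed intensity was 43619 and 48120.0 at II/III-VI, 62593 and 67684 at VIII-X, and 35319 and 60325 at VI-VIII. At X-XII, where Per1 had its highest mean, it was 56160 and 59268, close to the 55560 and 57500 at XII-II/III, where Per1 was lower. The sum and Per1 were both low at II/III-VI and high at VIII-X. Of 7 spermatocyte markers 4 had a called window effect in IP. Their sum was 18441 and 29446 at VI-VIII and between 15952 and 19778 elsewhere, a course unlike that of Per1. Window effects in IP were also called for 2 of 6 tested spermatogonial, 1 of 7 tested Sertoli cell, 1 of 6 peritubular myoid and 1 of 7 macrophage markers. Of 6 tested Leydig cell markers 0 had a called window effect in IP. The part of germ cell RNA in the Per1 and Per2 courses was not tested.

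The other members varied less evenly in IP. Nr1d1 measured 6793 and 8820.3 at XII-II/III, 4923 and 6729.9 at II/III-VI, 5045 and 5313 at VI-VIII, 4233 and 7333 at VIII-X, and 3709 and 4036 at X-XII. Both X-XII arrays lay below the other 8. The window means spanned 2.00-fold, but the F test over windows was not passed (limma adjusted p = 0.0702), with replicates of VIII-X that differed by 0.43 log2 units after set centring. Leaving out 1 array at a time gave adjusted p-values from 0.00893 (without IP VIII-X replicate 1) to 0.314 (without IP XII-II/III replicate 2), and 4 of 20 such fits called it.

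Arntl in IP measured 844 and 1389 at XII-II/III, 562 and 829 at II/III-VI, 883 and 1204 at VI-VIII, 451 and 746 at VIII-X, and 943 and 719 at X-XII. It was low at II/III-VI and VIII-X in both replicates relative to their set, but the X-XII replicates went opposite ways, 0.80 apart after set centring. The window means spanned 0.90 log2 units (limma adjusted p = 0.112). It was called without IP VIII-X replicate 2 (0.0322) and without IP XII-II/III replicate 1 (0.033), and in none of the other 18 fits. Cry2 in IP was highest at VIII-X (1976 and 2324) and lowest at II/III-VI (1212 and 1758), with an adjusted p of 0.277 from limma. It was called without IP II/III-VI replicate 2 (0.0253).

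Clock, Per3, Cry1, Nr1d2 and Ciart had no called window effect in IP (limma adjusted p of 0.353 for Ciart, 0.551 for Cry1 and 1 for the others). Nr1d2 spanned 0.10 log2 units between its highest and lowest window mean and Clock 0.21, both below the median amplitude of all tested genes, 0.24. The median amplitude of the 10 members in IP was 0.59. Ciart spanned 0.62, with replicates 0.57 apart at VIII-X. The highest mean of Cry1, at VI-VIII, came from 1 array at 1399, where its other replicate measured 955.

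In whole testis, 3 of the 10 members changed between windows, namely Per1, Nr1d1 and Ciart, beside 18.4% of all tested genes. The count was 3 at an unadjusted p below 0.05 and with a term for each array set, where 36.7% of all genes were called. Each of the 3 spanned close to 2-fold and each peaked in a window of its own.

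Per1 in total testis measured 3365 and 2816 at XII-II/III, 2261 and 2196 at II/III-VI, 2446 and 3019.9 at VI-VIII, 4186 and 5001 at VIII-X, and 3604 and 3095 at X-XII. Both VIII-X arrays were above the other 8. The peak stood 0.70 ± 0.12 log2 units above the other windows (limma adjusted p = 0.00306, beside 2.76% of all genes higher). The trough at II/III-VI was at -0.59 ± 0.12 (limma adjusted p = 0.00243, beside 6.54% of all genes lower), and the window F test had an adjusted p of 0.000815. The spermatid markers summed to 85616 and 86342 at VIII-X and to between 70599.6 and 82400 elsewhere in total testis, and 4 of 8 had a called window effect there.

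Nr1d1 in total testis measured 1645 and 1416 at XII-II/III, 2651 and 2518 at II/III-VI, 2862 and 2385 at VI-VIII, 1581 and 1629 at VIII-X, and 1469.7 and 1187 at X-XII. The 4 arrays from II/III to VIII lay above the other 6. VI-VIII was 0.62 ± 0.18 log2 units above the other windows (limma adjusted p = 0.0245, beside 6.15% of all genes higher) and II/III-VI 0.60 ± 0.18 (0.0321, beside 6%). The limma F test over windows had an adjusted p of 0.00667.

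Ciart in total testis measured 2298 and 2627 at XII-II/III, 1469 and 1245 at II/III-VI, 1224 and 1193 at VI-VIII, 1766 and 1438 at VIII-X, and 1785 and 2132 at X-XII. Both XII-II/III arrays were the highest. The peak was 0.71 ± 0.17 log2 units above the other windows (limma adjusted p = 0.0368, beside 1.07% of all genes higher). The trough at VI-VIII was at -0.57 ± 0.17 (limma adjusted p = 0.0335, beside 8.24% of all genes lower). The window F test had an adjusted p of 0.0125, and this call was lost without total XII-II/III replicate 2 (0.0798) and with quantile normalization (0.0631). This window holds the array with conflicting labels. The second probe set, the one placed by its neighbours on chromosome 3, peaked in the same window at 0.83 ± 0.17 (limma F test, adjusted p = 0.00393), with arrays at 1847 and 1839 there against at most 1435 elsewhere.

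The remaining 7 members were not called in total testis. Per2 measured 618 and 683 at II/III-VI and 481 and 487 at XII-II/III, the same highest and lowest windows as in IP, with an amplitude of 0.42 log2 units against 1.09 in IP. Fitted on the 10 total arrays alone, Per2 and Cry2 were called (limma adjusted p = 0.0429 and 0.0321), which brought the count to 5. The share of all genes called in that fit was not computed. Arntl lay between 387 and 448 on all 10 total arrays and spanned 0.12 log2 units, against 0.90 in IP. Some of these small differences are ties, since 11 of 100 total testis values of the members and 10 of 100 IP values were exactly equal to the same gene's value on another array of the set.

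The window course was compared between fractions by the interaction term, which called 0 of the 10 members (limma adjusted p below 0.05) and 0.0511% of all genes. Nr1d1 and Per2 passed an unadjusted threshold of 0.05, a count of 2, with limma adjusted p-values of 0.371 and 0.433. With a term for each array set, Nr1d1 was called (0.0283), beside 2.31% of all genes, and after median centring as well (0.0363). It was not called with quantile normalization (limma adjusted p = 0.0881), with a term for each testis, which pairs IP and total RNA of 1 homogenate (0.433), or with array weights (0.755). Its IP minus total difference was 2.05 and 2.64 log2 units in the XII-II/III testes and 0.82 and 1.16 in the VI-VIII testes. Its highest mean was at XII-II/III in IP and at VI-VIII in total testis, while in both fractions the lowest was at X-XII.

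**Figure D3:**
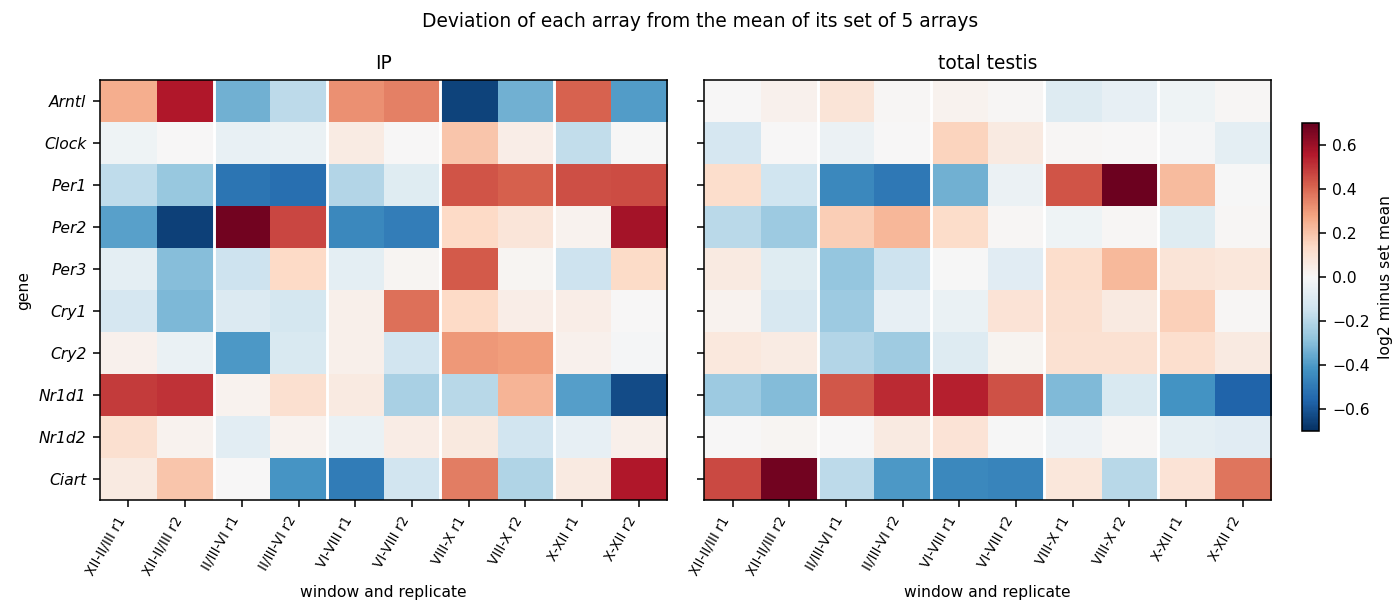
Log2 intensity minus the mean of the array's own set of 5 (colour, red above and blue below) for the 10 members (rows) on the 10 IP arrays and 10 total testis arrays (columns, by window and replicate). Per1, Per2 and Nr1d1 show paired columns of like colour in most windows, while Nr1d2 and Clock stay near 0.

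The mutual order of the members was read from the window of the highest mean. In IP this was XII-II/III for Arntl, Nr1d1 and Nr1d2, II/III-VI for Per2, VI-VIII for Cry1, VIII-X for Clock, Per3 and Cry2, and X-XII for Per1 and Ciart. In total testis it was XII-II/III for Ciart, II/III-VI for Arntl and Per2, VI-VIII for Clock, Nr1d1 and Nr1d2, VIII-X for Per1, Per3 and Cry2, and X-XII for Cry1. Per2, Per3 and Cry2 kept their window. For genes without a called window effect the highest window is a description within the replicate spread.

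How the members moved against each other from array to array was measured by correlation, after each array was centred on the mean of its set. Pearson's r over 10 arrays was tested by exact permutation, over all orders of the arrays within both sets, for 45 pairs in each fraction, adjusted by Benjamini-Hochberg over all 90. The 2 sets were permuted separately, so the 2 replicates of a window counted as separate arrays. For genes with a window course these p-values are likely too small. In IP 0 of 45 pairs were called, 3 had an unadjusted exact permutation p below 0.05, and Spearman's rho called 0. The strongest was Arntl against Per2, with r = -0.79 and rho = -0.77 (exact permutation p = 0.0211, adjusted 0.126). It was -0.64 and -0.92 in the 2 sets and -0.83 without the 2 arrays farthest in Arntl. Arntl and Per2 lay on opposite sides of their set means on 9 of 10 IP arrays. Arntl and Per3 had r = -0.75 (exact permutation p = 0.0167, adjusted 0.121), and Per1 and Cry2 had r = 0.73 (adjusted 0.121).

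In total testis 4 of 45 pairs were called, 17 had an unadjusted exact permutation p below 0.05, and rho called 4, of which 3 were also called by r. The share of called pairs among all tested genes was not computed in either fraction, so whether these counts are particular to clock genes was not tested. Of all tested genes 18.4% had a called window effect in total testis. Per1 and Per3 had r = 0.89 and rho = 0.94, with the smallest p that these orders can give (exact permutation p = 6.94e-05, adjusted 0.00625). Per3 and Cry2 had r = 0.81 and rho = 0.89 (exact permutation p = 0.000486, adjusted 0.0219). Arntl ran against both period genes, with r = -0.83 and rho = -0.85 for Per1 and r = -0.84 and rho = -0.87 for Per3 (exact permutation p = 0.00167, adjusted 0.0375 each). For Arntl and Per1 rho did not pass after adjustment. Per1 and Cry2 were called by rho (adjusted permutation p = 0.0375) and not by r (r = 0.85, adjusted 0.0781). Without the 2 farthest arrays r was 0.82, 0.74, -0.85 and -0.79 in this order of pairs. Arntl moved by only 0.12 log2 units between window means in this fraction. Of its 5 values in the replicate 2 set, 3 were exactly equal (442.504). Only VIII-X lay below the mean of that set (-0.055 log2 units), so r for the Arntl pairs rests there on few distinct values.

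Leaving out a testis ended some of these calls, while r changed less. It also leaves fewer orders to permute. Over the 10 such tests r ranged from 0.83 to 0.94 for Per1 and Per3, from 0.71 to 0.88 for Per3 and Cry2, from -0.92 to -0.81 for Arntl and Per1, and from -0.90 to -0.69 for Arntl and Per3. Per1 with Per3 stayed called in 9 of 10 such tests and was lost without VIII-X replicate 2 (exact permutation, adjusted p = 0.102). Per3 with Cry2 was called only without XII-II/III replicate 2 or VI-VIII replicate 2, and the highest adjusted p, 0.374, came without II/III-VI replicate 1. Each Arntl pair was called only without XII-II/III, II/III-VI or VI-VIII replicate 2, with a highest adjusted p of 0.194 without VIII-X replicate 1. The sign of r was the same in all 10 tests for each of the 4 pairs. Without centring by set, 1 pair was called.

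The pair at the centre of the REV-ERB arm showed no strong relation in either fraction. Arntl and Nr1d1, its repressor, had r = 0.32 in IP (exact permutation, adjusted p = 0.645) and 0.47 in total testis (0.494). The 2 receptors had r = 0.03 in IP and 0.79 in total testis (exact permutation, adjusted p = 0.988 and 0.0781). Per1 and Per2 had r = 0.09 in IP and -0.48 in total testis (0.935 and 0.494). The difference between fractions was not tested for any pair.

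**Figure D4:**
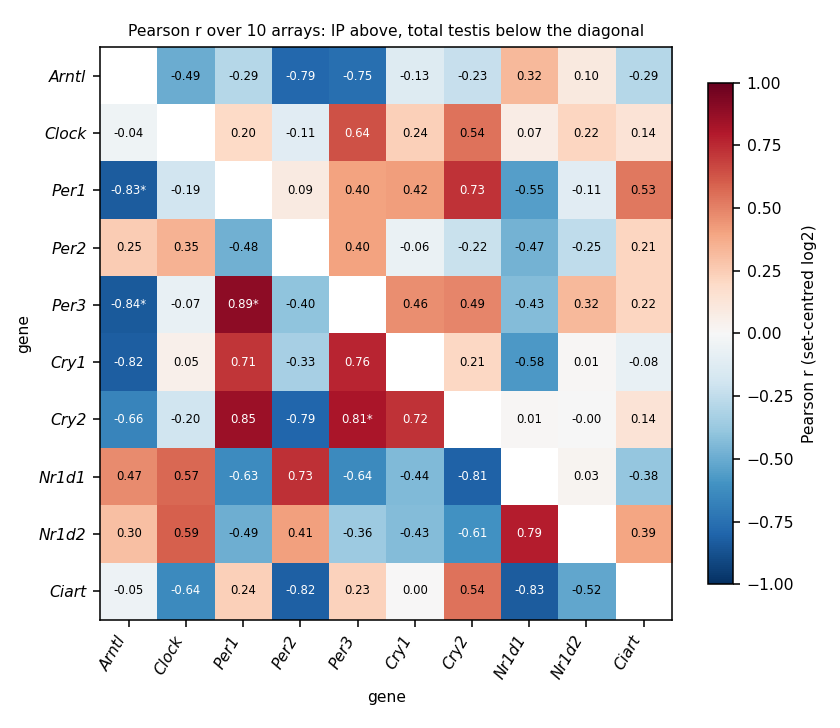
Pearson's r over 10 set-centred arrays for each pair of members, with IP above and total testis below the diagonal (red positive, blue negative, an asterisk for an adjusted p below 0.05). The 4 called pairs all lie in total testis and all include Per1 or Per3.

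IP and total arrays of the same testis were compared for each member over the 10 testes. The permutation again counted the 2 replicates of a window as separate, with the same limit on p. The called count was 0 of 10, with 4 at an unadjusted exact permutation p below 0.05 and 0 by rho. Per1 came nearest, with r = 0.83 and rho = 0.79 (exact permutation p = 0.00653, adjusted 0.0538) and r = 0.95 without the 2 farthest testes. Cry1 had r = 0.61 and rho = 0.77 (exact permutation p = 0.0108, adjusted 0.0538), and Ciart r = 0.75 (adjusted 0.0861). Nr1d1 had r = 0.19 and Arntl r = 0.31 (exact permutation, adjusted p = 0.694 and 0.62). The median r of the members was 0.48 and that of all tested genes 0.50.

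For each called window effect, the 5 tested genes with the highest r to the member over the 10 arrays of that fraction were listed as a description. In IP these were Plb1 (0.95), Cypt1, Gldnos, Tmem30c and Nsmf for Per1, and Ccdc86 (0.98), Ccdc57, Fhl3, Acvr1 and Arf6 (0.90) for Per2. In total testis the highest r among 15650 genes was with Gm9861 for Per1, 1700020L24Rik for Nr1d1 and Tgif1 for Ciart. The next were Ankfn1, Ccr4, Cyyr1 and Pou5f1 for Per1, Tasor2, Nsun6, Swt1 and Adgb for Nr1d1, and Pik3cd, Xrcc4, Gm10644 and Mtfr2 for Ciart. Over 10 arrays, the highest of so many values is large by selection.

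The wider clock was covered by 25 further genes, of which 21 could be tested. In IP 13 were higher than in total testis and 7 lower, beside 50.1% and 26.6% of all tested genes. The median difference was 0.36, and 1 gene, Rora, was not called. After median centring 8 were higher and 10 lower, beside 28% and 61.4% of all genes. The genes with the smallest p were the output factors Hlf (1.73 ± 0.071 log2 units) and Dbp (1.57 ± 0.094), the repressors Bhlhe41 (1.65 ± 0.084) and Bhlhe40 (1.53 ± 0.093), the AMP kinase subunit Prkaa2 (1.72 ± 0.081) and the deubiquitinase Usp2 (-0.92 ± 0.054), with limma adjusted p-values of at most 1.29e-10.

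Between windows, 3 of these 21 changed in IP and 4 in total testis, beside 8.87% and 18.4% of all tested genes. At an unadjusted p below 0.05 the counts were 4 and 5. Bhlhe40, which represses E-box transcription, measured 2432 and 3977 at X-XII in IP and at most 1219 elsewhere, and its total testis arrays lay between 294 and 388. Its window course differed between the fractions (limma interaction, adjusted p = 0.0382), but the list was chosen with earlier results of these data known. Rora, the activator that competes with the REV-ERB receptors for ROR elements, peaked at VIII-X in IP (2112 and 1794) and in total testis (1987 and 2294). It was lowest at II/III-VI (626 and 829 in IP, 562 and 489 in total testis), with limma adjusted F test p-values of 0.0295 and 0.000494. These are the highest and lowest windows of Per1 in total testis. The IP call of Rora was lost with a term for each array set (limma adjusted p = 0.0624) and with array weights (0.950).

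Tipin, a partner of Timeless, peaked at VI-VIII in IP (1016 and 1353) and total testis (2049.5 and 1941), with limma adjusted F test p-values of 0.00178 and 3.35e-05. With array weights its IP call was lost (0.0727). Nfil3, which represses through D-boxes, changed in total testis (limma adjusted p = 0.00204). It measured 605 and 648 at VIII-X there against 261 and 232 at II/III-VI. Per3 had its highest and lowest total testis means in the same windows, without a called window effect (limma F test, adjusted p = 0.865). A link between Nfil3 and Per3 was not tested. The kinase gene Wee1 changed in total testis as well (limma adjusted p = 0.0371), with 3469 and 3738 at II/III-VI and 2087 and 2442 at X-XII.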

How the data were processed

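GeneChip ST 1.0 arrays were run on 20 samples, with 100 ng of RNA each. Each deposited value is a linear intensity of a probe set, which the authors summarized by RMA, as the submitters' processing notes say without a version. The 4 sets of 5 arrays that share fraction and replicate number listed 28856, 26006, 23528 and 26013 probe sets, so they appear to have been filtered and normalized separately. For arrays, the number of arrays limits the precision.

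Symbols came from the platform's annotation: 21789 probe sets carried 1 symbol and were used, 1621 carried several and 5446 none. The highest-mean probe set per gene was kept, and the deposited intensities were taken as log2. Genes listed on all 20 arrays, with a group mean above the 25th percentile of all values (8.20), were tested with limma 3.58.1 in R 4.3.3, in a model with 10 group means (10 residual degrees of freedom), eBayes and Benjamini-Hochberg adjustment over 15651 genes. P-values are two-sided, with a threshold of 0.05. Comparisons were IP against total testis, an F test over the 5 windows within each fraction and for their difference, and each window against the mean of the other 4. Correlations used values centred within each set and exact permutation within sets.

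All 10 members are described. Of 25 further clock genes, those called are named, at most the 6 with the smallest p. The members and lists were chosen with earlier results of these data known. IP and total RNA of a number and window came from 1 homogenate per the labels' protocols, and their deviations from group means correlated at 0.16 to 0.36 (5 pairs). The scripts were tested on simulated data. Motifs were searched in RefSeq promoter windows (GRCm38.p6), where Per2 had no entry.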

Additional observations from a re-analysis of the deposited data

Results flagged for a closer look

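Among the members no value met the rules for a closer look. Of the further clock genes, Bhlhe40 had a window course that differed between IP and total testis by a test of the difference itself (limma interaction, adjusted p = 0.0382). The list that holds Bhlhe40 was chosen with earlier results of these data known, so this call is a description only.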

How the results depend on the processing

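The count of members higher or lower in IP than in total testis (7) was 7 to 8 when any 1 array was left out. The count with a window effect in IP (2) ranged from 2 to 4 in such fits, was 5 with quantile normalization, with median centring and with the replicate block (a term for each array set), and was 1 with array weights. The count with a called highest window in IP (2, range 1 to 3) was 4 with quantile normalization, median centring and the replicate block, 1 with the IP arrays alone and 0 with array weights. In total testis the window count (3, range 2 to 3) was 5 with array weights and with the total arrays alone and 2 with quantile normalization (Ciart lost), and the count with a called highest window (3, range 1 to 3) was 4, 4 and 2 with these settings. The interaction count (0, range 0 to 0) was 1 with median centring and with the replicate block. Called pairs ranged from 0 to 0 in IP and from 0 to 6 in total testis (4), where they were 0 without VIII-X replicate 2 and 1 without centring by set. Members that moved together in IP and total arrays of the same testis (0, range 0 to 3) were 3 without centring and 3 with the mean of a gene's probe sets. The direction turned for Cry2 in IP against total testis after median centring (-0.0668) and for the highest IP window of Cry1 without IP VI-VIII replicate 2 (-0.0124, against up to 0.539 with other arrays left out). The causes were not tested. Beyond the main fit, shares of all genes were computed only for IP against total testis after median centring and for the window and interaction tests with the replicate block. The other counts have no such share beside them. Of 522 values for single genes or pairs under settings other than a left-out array, 473 kept direction and side of the threshold, 16 lost the call, 32 gained it and 1 reversed. By the labels, arrays of a replicate number share only that number across windows, although they fell into sets that looked separately normalized. Correlations of their deviations ran from -0.01 to 0.55 in IP and from -0.06 to 0.67 in total testis. A set of 5 arrays on its own gave values of r and no calls, and neither a term for the testis nor a random block was run for the window tests within a fraction. With 2 arrays a group, windows that differ by less than their replicates cannot be told apart.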
